A study of Mus musculus with 7 samples.

Results

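Heat shock protein genes of the cytosol and the mitochondrion were followed in carotid artery from offspring of reciprocal crosses between ApoE-null and wild-type mice. All probe sets annotated to exactly 1 of 10 gene symbols were taken, which gave 20 of the 45101 probe sets on the Affymetrix Mouse 430 2.0 array. They represented 8 of the 18194 genes named by a single symbol, namely Hsph1, Hspa8, Hspa1a, Hspa1b, Hsp90aa1, Dnajb1, Hspd1 and Hspe1. Hsp90ab1 and Hsf1 had no probe set with a single symbol in the annotation used and were not analysed here. All offspring had the genotype ApoE-/+, with 1 null allele of Apoe, the gene of a lipoprotein ligand. In 4 samples the mother was ApoE-/- and hypercholesterolemic and the father was wild type. The other 3 samples had a normocholesterolemic wild-type mother and an ApoE-/- father. The labels give no treatment, age, sex or litter and do not say whether each array came from a separate animal, so p-values measure only the spread between these samples. Since the crosses were reciprocal, maternal and paternal effects cannot be told apart.

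Heat shock proteins are molecular chaperones, which bind unfolded proteins and keep them from aggregating. HSP70 proteins such as those of Hspa1a, Hspa1b and Hspa8 work in an ATP-driven cycle that J domain proteins such as Dnajb1 start and that nucleotide exchange factors such as Hsph1 reset. HSP90 takes over clients from HSP70, and Hspd1 and Hspe1 form the folding chamber of mitochondria. Heat, oxidants and unfolded protein activate the transcription factor HSF1, which binds heat shock elements, arrays of the letters GAA in alternating orientation, and raises the inducible members. In the artery wall, HSP60 and HSP70 have been studied as stress proteins and as antigens in atherosclerosis.

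The promoters of 4 members are shown. Those of Hspa1a and Hspa1b are nearly identical, that of Hspe1 is known to be shared with Hspd1, and all 4 were picked with matches to letters of heat shock elements. Binding of heat shock factors was not measured. The sequences are from RefSeq (GRCm38.p6) and run 5′ to 3′ along the gene over the 150 bases before the annotated start. Capitals mark matches to GAANNTTC or TTCNNGAA, the letters of 2 adjoining GAA units. Each motif is its own reverse complement, so that both strands are covered, and where matches overlap the capitals run together. The windows are chr17:34972157-34972306 on the minus strand for Hspa1a, chr17:34959239-34959388 on the minus strand for Hspa1b, chr5:149636337-149636486 on the minus strand for Hsph1 and chr1:55087998-55088147 on the plus strand for Hspe1.
Hspa1a promoter: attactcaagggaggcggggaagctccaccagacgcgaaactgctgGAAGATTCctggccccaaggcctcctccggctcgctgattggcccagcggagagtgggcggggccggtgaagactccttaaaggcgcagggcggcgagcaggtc
Hspa1b promoter: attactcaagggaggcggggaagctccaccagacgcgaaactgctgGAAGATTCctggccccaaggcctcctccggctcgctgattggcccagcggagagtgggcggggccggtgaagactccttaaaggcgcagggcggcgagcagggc
Hsph1 promoter: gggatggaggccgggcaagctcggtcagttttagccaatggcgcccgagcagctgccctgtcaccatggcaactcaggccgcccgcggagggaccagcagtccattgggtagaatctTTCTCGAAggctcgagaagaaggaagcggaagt
Hspe1 promoter: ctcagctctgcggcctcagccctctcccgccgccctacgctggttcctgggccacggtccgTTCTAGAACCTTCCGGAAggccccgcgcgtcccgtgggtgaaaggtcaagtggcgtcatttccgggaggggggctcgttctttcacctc

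The windows of Hspa1a and Hspa1b differed at 1 of 150 bases, T149G, with positions counted from 1 at the 5′ end of the window and the Hspa1a base given before the position. Both had 1 match, GAAGATTC, 104 to 97 bases before the start. Hsph1 had TTCTCGAA between 33 and 26 bases before its start. In the Hspe1 window 3 matches overlapped (TTCTAGAA, GAACCTTC and TTCCGGAA), from 89 to 72 bases before the start. Hspd1 lies on the other strand, and 1 of its 2 annotated starts is 216 bases away on the far side of these matches. The matches thus lie between that start and the start of Hspe1. The other annotated start of Hspd1 lies on the opposite side of the Hspe1 start, and the 250 bases before it held 0 matches. Both genes of the mitochondrial chamber are known to share a promoter. Over the 250 bases before the start, 12.8% of the 32851 promoters of that length in the table held either motif. Those of both annotated starts of Dnajb1 held none of these letters. Hspa8 and Hsp90aa1 were not in the table.

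Expression is given as the deposited MAS5 signal, a linear brightness scaled by the authors so that the trimmed mean of each array is 200. Apoe had signals of 2554 to 3105 in the ApoE-null mother group and of 3034 to 3897 in the wild-type mother group. All 8 smooth muscle and all 8 endothelial markers exceeded the highest of 27 bacterial control probe sets, taken as the background ceiling (at most 22.0), on every array. The array of wild-type mother 2 stood apart. It had a summed signal of 9 skeletal muscle markers of 2511 against 147.9 to 375.2 on the other arrays, the highest 3 prime to 5 prime ratio of Gapdh (7.80, others 5.03 to 6.56) and a Xist signal of 41.2 (others 5174 to 5931). The Gapdh ratio averaged 5.78 with an ApoE-null mother and 6.06 with a wild-type mother (two-sided exact permutation p = 0.8286; the smallest p that 35 splits can give is 0.0286). Summed thymocyte and T cell markers were 445.8 to 751.6 with an ApoE-null mother and 60.4 to 174.4 with a wild-type mother. Those of 6 adipocyte markers were 17776 to 25501 and 7818 to 23080, and those of 6 Schwann cell and neuron markers 389.8 to 1933 and 1170 to 3132. In such bulk samples fewer cells of a type cannot be told apart from less RNA per cell, and the part of these cells in the values below was not tested.

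None of the 8 heat shock genes passed the test for a difference between the crosses. Log2(signal + 2) of the ApoE-null mother group minus that of the wild-type mother group was tested in limma, with Benjamini-Hochberg adjustment over 27027 probe sets. Of the 20 heat shock probe sets, 18 had a mean signal above the filter of 23.6 and were tested. At an adjusted p under 0.05 the test called 0 of them, and 0.00370% of all probe sets, which is 1 probe set. Their adjusted p-values in limma were 0.508 to 0.984. At an unadjusted p under 0.05 in limma there were 3 lower and 1 higher, or 22.2% of the 18, where 8.25% of all probe sets reached that level (3.96% lower and 4.30% higher). Without wild-type mother 2 the test again called 0, and 6 were at an unadjusted p under 0.05 in limma. The share of all probe sets at that level was not counted for that fit, so nothing can be read from the 6. The 4 probe sets found with all arrays belonged to Hsph1, Hspa8 (1 lower and 1 higher) and Hsp90aa1. Fold changes were negative for 11 and positive for 7, with a median of -0.09 on the log2 scale, against -0.0041 over all probe sets.

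**Figure D1:**
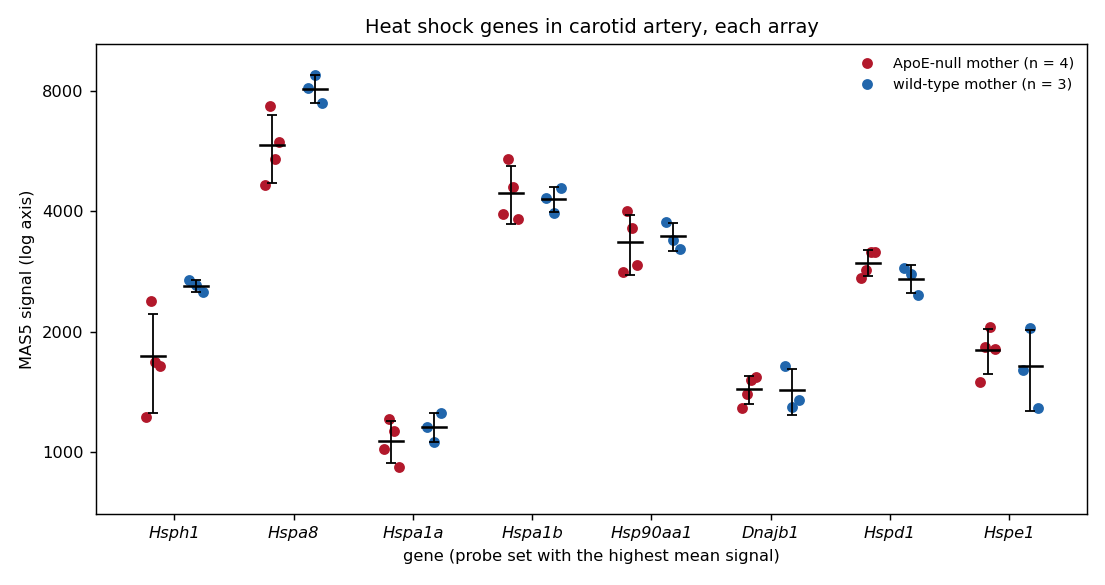
MAS5 signal (log axis) of the strongest probe set of each of the 8 genes, with the 4 arrays of the ApoE-null mother group in red and the 3 of the wild-type mother group in blue; bars give mean ± SD. Groups do not overlap for Hsph1 and Hspa8 and overlap for the other 6 genes; heights of different genes cannot be compared, since probe sets differ in brightness.

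Hsph1, the HSP110 exchange factor that resets HSP70, had the largest difference among the strongest probe sets of the 8 genes. The signals of 1425993_a_at were 1221.8, 2391.4, 1679.9 and 1643.8 in the ApoE-null mother group and 2689.2, 2616.8 and 2511.7 in the wild-type mother group. Every ApoE-null mother array was below every wild-type mother array, and they spread over a 1.96-fold range where the wild-type mother arrays spread over 1.07-fold. The means were 1734 ± 485 (SD, n = 4) and 2606 ± 89.3 (SD, n = 3). This gave a log2 fold change of -0.63 ± 0.19 (SE), with a 95% interval from -1.05 to -0.21, a fold of 0.647 (limma, adjusted p = 0.508). The gap between the groups was narrow, as ApoE-null mother 2 lay close to the lowest wild-type mother array. With each array left out the log2 fold change was -0.80 to -0.47, and it was -0.62 without wild-type mother 2.

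The weaker Hsph1 probe set, 1423566_a_at, overlapped between the groups. Its signals were 82.4, 202.2, 180.5 and 138.7 with an ApoE-null mother and 244.9, 100.1 and 253.1 with a wild-type mother. The array of wild-type mother 2 was here the lowest of its group, whereas on the stronger probe set it was between the others. The log2 fold change of -0.36 had an interval from -1.15 to 0.43 (limma, adjusted p = 0.810). It was -0.79 without wild-type mother 2, and -0.15, -0.13 and -0.098 without wild-type mother 1, wild-type mother 3 or ApoE-null mother 1.

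Hspa8 encodes the constitutive HSP70 of the cytosol, which also uncoats clathrin vesicles and takes part in chaperone-mediated autophagy. Its strongest probe set, 1455789_x_at, had signals of 4663.2, 7339.9, 5424.9 and 5978.4 with an ApoE-null mother and 8144.4, 8766.6 and 7457.8 with a wild-type mother. The groups did not overlap, but ApoE-null mother 2 reached nearly to wild-type mother 3. The means were 5852 ± 1129 (SD, n = 4) and 8123 ± 655 (SD, n = 3). This gave a log2 fold change of -0.49 ± 0.15 (SE), with an interval from -0.82 to -0.16 (limma, adjusted p = 0.508). Under quantile normalization the groups overlapped.

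Of the other 3 Hspa8 probe sets, 2 had lower means in the ApoE-null mother group with overlapping arrays. Signals of 1420623_x_at were 2988.4, 4545.2, 3844.3 and 4688.3 with an ApoE-null mother and 4869.7, 3933.0 and 6127.8 with a wild-type mother, a log2 fold change of -0.31 (interval -0.72 to 0.10). Those of 1420622_a_at were 717.1, 1377.2, 1288.0 and 776.0, against 1687.7, 961.6 and 1561.7 with a wild-type mother, a log2 fold change of -0.45 (interval -1.03 to 0.13). Neither passed the test (limma, adjusted p = 0.684 and 0.675). The value of 1420623_x_at was -0.47 without wild-type mother 2, -0.15 without wild-type mother 3 and -0.17 without ApoE-null mother 1. That of 1420622_a_at was -0.70 without wild-type mother 2, -0.30 without wild-type mother 1 and -0.29 without ApoE-null mother 1. Without wild-type mother 2 both were at an unadjusted p under 0.05 in limma and neither passed after adjustment (limma, adjusted p = 0.487 and 0.475). Probe sets whose names end in x can bind other transcripts, and HSP70 genes are alike in sequence, so that related messages may add to these signals.

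The fourth Hspa8 probe set, 1431182_at, went the other way. It was weak, with signals of 91.3, 102.6, 92.5 and 139.9 in the ApoE-null mother group and of 135.7, 30.9 and 35.2 in the wild-type mother group. The value of wild-type mother 1 lay within the ApoE-null mother range, and the other wild-type mother arrays lay below it. The log2 fold change was 0.95 with an interval from 0.024 to 1.88 (limma, adjusted p = 0.601). It was 1.61 without wild-type mother 1 (limma, adjusted p = 0.0681), but 0.58 when wild-type mother 2 was left out and 0.67 when it was wild-type mother 3 (limma, adjusted p = 0.692 and 0.795). The probe sets of this gene therefore gave no common direction.

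**Figure D2:**
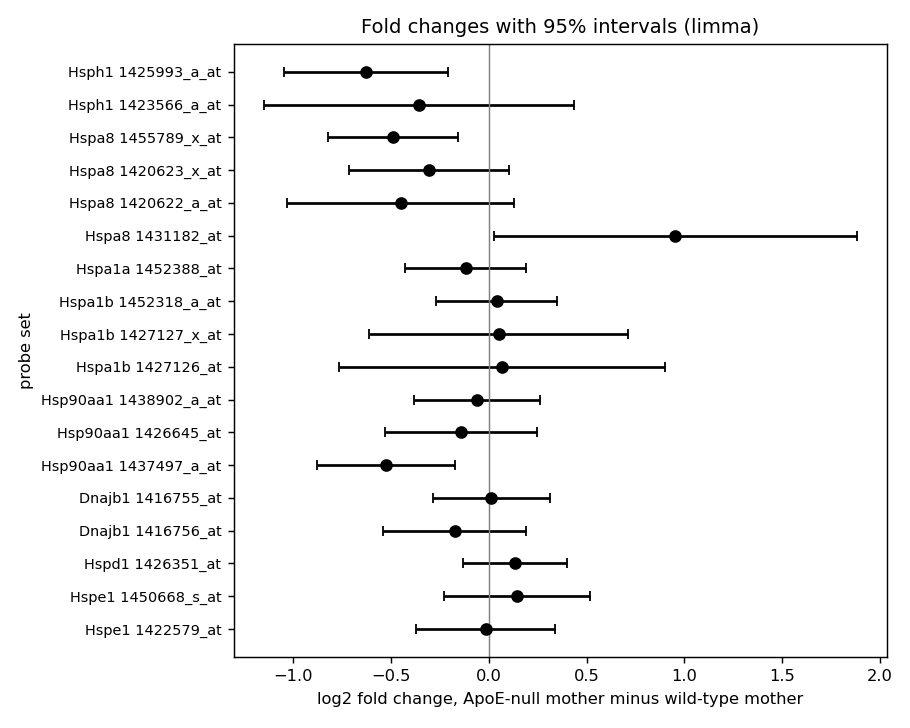
Log2 fold change between the crosses (above 0 means higher with an ApoE-null mother) and its 95% interval from limma for each of the 18 tested probe sets, ordered by gene. The intervals of 1 probe set each of Hsph1, Hspa8 and Hsp90aa1 lie below 0 and that of Hspa8 1431182_at above 0, and 0 of the 18 passed after adjustment over all probe sets.

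Hspa1a and Hspa1b encode the stress-inducible HSP70 and are nearly identical in coding sequence, so their probe sets may not separate them. Both were well above background in every sample. The Hspa1a probe set 1452388_at had signals of 1018.7, 1207.3, 1126.4 and 914.7 with an ApoE-null mother and 1155.4, 1061.1 and 1249.0 with a wild-type mother. The strongest Hspa1b probe set, 1452318_a_at, had 3935.4, 5425.0, 4607.1 and 3835.6 with an ApoE-null mother and 4320.8, 3973.3 and 4583.9 with a wild-type mother. Both overlapped between the groups, with log2 fold changes of -0.12 (interval -0.43 to 0.19) and 0.04 (interval -0.27 to 0.35; limma, adjusted p = 0.841 and 0.954).

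The other Hspa1b probe sets varied far more from sample to sample than between the groups. Signals of 1427126_at were 581.8, 1484.6, 1008.8 and 1078.6 with an ApoE-null mother and 1474.0, 465.3 and 1211.9 with a wild-type mother, a range of 2.55-fold and 3.17-fold within the groups. Those of 1427127_x_at were 1068.0, 2376.5, 1703.5 and 1569.4 with an ApoE-null mother and 2190.8, 933.6 and 1852.9 with a wild-type mother. Group means of 1427126_at were 1038 ± 370 (SD, n = 4) and 1050 ± 523 (SD, n = 3). On both probe sets the lowest array was wild-type mother 2, followed by ApoE-null mother 1, which also had the highest and the next highest Gapdh ratio of 3 prime to 5 prime signal (7.80 and 6.56). Their Actb ratios were 6.71 and 3.02, where the other arrays had 2.17 to 5.23. The array of ApoE-null mother 2, with a Gapdh ratio of 6.10 and the Actb ratio of 5.23, had the highest signal of all arrays on both probe sets. The part of RNA integrity in this order was not tested.

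For these probe sets the direction depended on single arrays. The log2 fold change of 1427126_at was 0.07 with an interval from -0.77 to 0.90, and -0.44 without wild-type mother 2. That of 1427127_x_at was 0.05 with an interval from -0.61 to 0.71, and -0.32 without wild-type mother 2 (limma, adjusted p = 0.971 and 0.972 with all arrays). The residual SD of 1427126_at within groups was 0.71 on the log2 scale, and 5.53% of all tested probe sets had a larger one. That of 1452318_a_at, annotated to the same gene, was 0.19, with 77.7% larger.

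Dnajb1 encodes the main inducible J domain protein, HSP40, which delivers clients to HSP70. Its strongest probe set, 1416755_at, had signals of 1288.9, 1395.8, 1514.4 and 1537.9 with an ApoE-null mother and 1636.4, 1293.4 and 1345.7 with a wild-type mother. The groups overlapped almost fully, and the log2 fold change was 0.01 (interval -0.29 to 0.31; limma, adjusted p = 0.983). The weaker 1416756_at had signals of 110.0 to 130.6 and of 123.9 to 149.9, with a log2 fold change of -0.17 (interval -0.54 to 0.19; limma, adjusted p = 0.798).

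Hsp90aa1 encodes the inducible cytosolic HSP90, which matures kinases and steroid receptors and holds endothelial nitric oxide synthase in an active state. It had 5 probe sets, and the 3 that were tested did not give the same picture. The strongest, 1438902_a_at, had signals of 2813.5, 4012.6, 3634.2 and 2936.8 with an ApoE-null mother and 3770.6, 3397.1 and 3221.4 with a wild-type mother. Its groups overlapped, with a log2 fold change of -0.06 (interval -0.38 to 0.26; limma, adjusted p = 0.933). The probe set 1426645_at had 2213.8, 3132.5, 2983.8 and 3098.9 with an ApoE-null mother and 4080.9, 2740.5 and 2725.4 with a wild-type mother, a log2 fold change of -0.14 (interval -0.53 to 0.25; limma, adjusted p = 0.850).

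On 1437497_a_at the difference was larger. Signals were 1900.7, 2145.3, 2181.4 and 2427.0 with an ApoE-null mother and 3637.8, 3422.2 and 2393.2 with a wild-type mother. The array of ApoE-null mother 4 slightly exceeded wild-type mother 3, and otherwise the ApoE-null mother arrays were lower. The means were 2164 ± 215 (SD, n = 4) and 3151 ± 665 (SD, n = 3), a log2 fold change of -0.52 ± 0.16 (SE), with an interval from -0.88 to -0.17 (limma, adjusted p = 0.508). With single arrays left out it was -0.71 to -0.41. The remaining probe sets, 1433251_at and 1441827_x_at, were below the filter, at 4.6 to 28.1 and at 1.0 to 15.8 over the 7 arrays, and exceeded the background ceiling on 2 and 1 of the 7 arrays.

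Of the mitochondrial chaperonin genes, Hspd1 encodes HSP60, the barrel of the folding chamber. Its 1 probe set 1426351_at had signals of 2722.2, 2859.9, 3159.0 and 3172.2 with an ApoE-null mother and 2886.7, 2781.4 and 2472.8 with a wild-type mother. The means were 2978 ± 223 (SD, n = 4) and 2714 ± 215 (SD, n = 3), with overlapping arrays. Its residual SD was 0.11 on the log2 scale, the smallest of the 18 tested probe sets, and 95.6% of all tested probe sets had a larger one. The log2 fold change was 0.13 with an interval from -0.13 to 0.40 (limma, adjusted p = 0.786).

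Hspe1 encodes HSP10, the lid of that chamber. Signals of 1450668_s_at were 1497.2, 1833.6, 2049.8 and 1811.7 with an ApoE-null mother and 1604.1, 2039.2 and 1291.7 with a wild-type mother. The groups overlapped, with a log2 fold change of 0.14 (interval -0.23 to 0.52; limma, adjusted p = 0.841). The weaker 1422579_at had signals of 184.2 to 211.8 and of 174.7 to 232.1, with a log2 fold change of -0.016 (interval -0.37 to 0.34; limma, adjusted p = 0.984). The strongest probe sets of this gene and of Hspd1, which share the region shown above, had small positive values, and both intervals included 0.

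By strongest probe set, groups were without overlap for 2 of the 8 genes, Hsph1 and Hspa8, both with the ApoE-null mother group lower. Of all 12713 genes 8.58% were without overlap in either direction, so 2 of 8 is a small count to set against that share. When the log2 values of all tested probe sets of a gene were averaged, 0 of the 8 genes were without overlap. The share of all genes was not counted for such averages, so nothing can be read from the 0. For the strongest probe sets of the other 6 genes the interval did not reach a 1.5-fold difference in either direction. This does not hold for all probe sets of these genes. The intervals passed 1.5-fold on Hsp90aa1 1437497_a_at (-0.88 to -0.17), Hspa1b 1427126_at (-0.77 to 0.90) and Hspa1b 1427127_x_at (-0.61 to 0.71). The median log2 fold change of the 8 genes was -0.02, with 4 positive and 4 negative, and that of all genes was -0.0081.

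The samples of the ApoE-null mother group were ordered alike on many of these probe sets. ApoE-null mother 1 was the lowest of its group on 14 of the 18 tested probe sets, where it was the lowest on 24.0% of all tested probe sets. ApoE-null mother 2 was the highest on 11 of the 18, against 23.1% of all. In the wild-type mother group, wild-type mother 1 was the highest on 11 of the 18 (35% of all) and the lowest on 0 (30.2% of all). Probe sets of a gene share its transcripts and are not independent, and this order was noticed in the data and not tested. The same ApoE-null mother 1 had the largest summed signal of 16 immediate early genes, 25266, where the other arrays had 19925 to 22969. Within its group, its summed signal was the highest for the small heat shock proteins (16590, others 12006 to 14696). It was the lowest for the wider HSP70 and HSP110 family (3705, others 4316 to 4910).

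**Figure D3:**
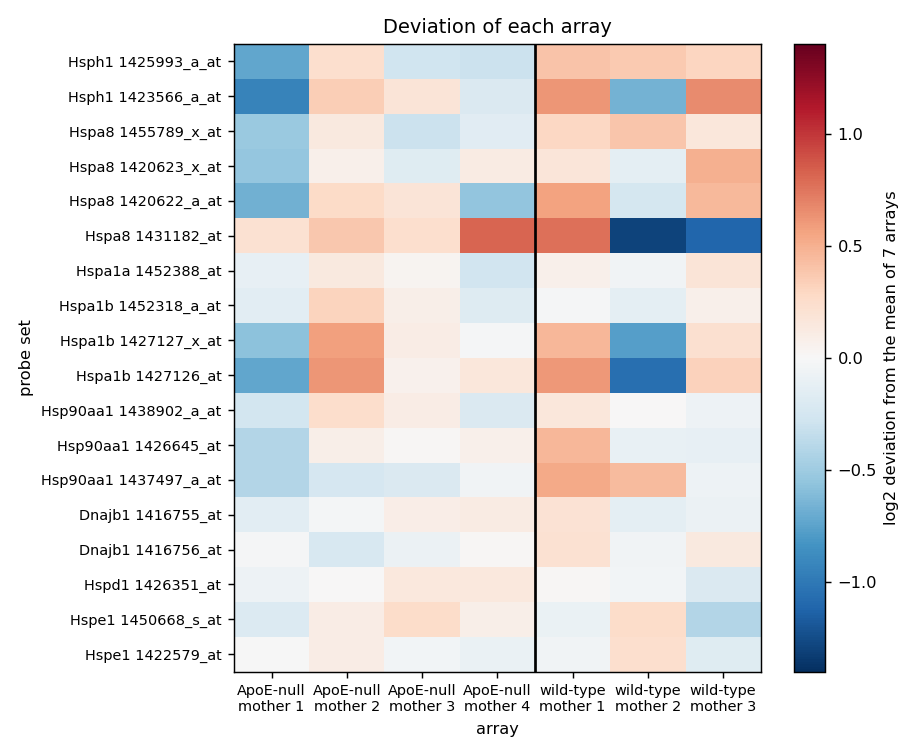
Log2 deviation of each array from the mean of the 7 arrays for the 18 tested probe sets (red above, blue below), with the 4 ApoE-null mother arrays left of the line and the 3 wild-type mother arrays right of it. ApoE-null mother 1 is low on most Hsph1, Hspa8, Hspa1b and Hsp90aa1 probe sets, the arrays of wild-type mother 2 and wild-type mother 3 are low on Hspa8 1431182_at, that of wild-type mother 2 also on 2 Hspa1b probe sets and Hsph1 1423566_a_at, and rows of Hspd1 and Dnajb1 stay pale.

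Over the strongest probe sets of Hsph1, Hspa1a, Hspa1b and Dnajb1, all known targets of HSF1, the mean log2 deviation was -0.28, 0.16, -0.02 and -0.16 on the ApoE-null mother arrays 1 to 4 and 0.17, 0.01 and 0.12 on the wild-type mother arrays. The genes nearest to this profile over the 7 arrays, among 11970 compared, were Smurf1, Zw10, Arhgef6, Prcc and Sf3a1. Their root mean square distances were 0.047, 0.059, 0.060, 0.068 and 0.073 on the log2 scale. None of them is a chaperone gene, but nothing can be read from that in so few of 11970 genes. They were picked as the closest on these same arrays, and the likeness was not tested. The profile left out the other heat shock genes, among them Hsp90aa1, described above as inducible, and Hspe1, with the matches shown above. It also rests unevenly on the genes it holds. On ApoE-null mother 1 the deviation was -0.73 for Hsph1, -0.11 for Hspa1a, -0.15 for Hspa1b and -0.14 for Dnajb1.

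Among 106 other genes of the same machinery and of the acute stress response, 99 were measured and 0 passed the test. At an unadjusted p under 0.05 in limma there were 5 higher and 9 lower, where 8.65% of all genes reached that level in either direction. Groups were without overlap for 14 of the 99, against the 8.58% of all genes given above. The smallest p was that of Fkbp4, a cochaperone that links HSP90 to steroid receptors, with 113.5, 123.2, 112.7 and 137.4 in the ApoE-null mother group and 246.3, 180.5 and 206.2 in the wild-type mother group. The groups did not overlap, and the log2 fold change was -0.78 with an interval from -1.16 to -0.40 (limma, adjusted p = 0.418). Stip1, the adaptor that joins HSP70 to HSP90, had 164.6 ± 11.2 (SD, n = 4) and 223.4 ± 20.4 (SD, n = 3), again without overlap, and a log2 fold change of -0.43 (limma, adjusted p = 0.550). With both included, the 16 measured HSP70 and HSP90 cochaperones had 6 positive and 10 negative values and a median log2 fold change of -0.07. Groups were without overlap for 4 of the 16 and in both directions. The others were Bag3, lower at -0.14, and Bag1, higher at 0.33 (limma, adjusted p = 0.791 and 0.584). Bag3 and Bag1 were named after their values were seen.

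The wider HSP70 and HSP110 family had 4 positive and 5 negative of 9 genes. Hspa9, the mitochondrial HSP70, had a log2 fold change of 0.35 (interval -0.01 to 0.72) and Hspa1l, the HSP70 gene expressed mainly in testis, of -0.48 (interval -1.01 to 0.04). Of the 6 measured small heat shock proteins, which hold unfolded proteins without ATP, 4 were negative and 2 positive, with a median of -0.21. Hspb8 had 904.7 ± 33.8 (SD, n = 4) in the ApoE-null mother group and 1169 ± 94.8 (SD, n = 3) in the wild-type mother group, without overlap, and Hspb1 had 3158 ± 292 and 3834 ± 544. Their log2 fold changes were -0.37 and -0.27 (limma, adjusted p = 0.540 and 0.627). Of 14 J domain genes 7 were positive and 7 negative. Dnajb11, a J domain protein of the endoplasmic reticulum, had the value of -0.56 (limma, adjusted p = 0.485) and the cytosolic Dnaja2 of 0.30 (limma, adjusted p = 0.642).

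**Figure D4:**
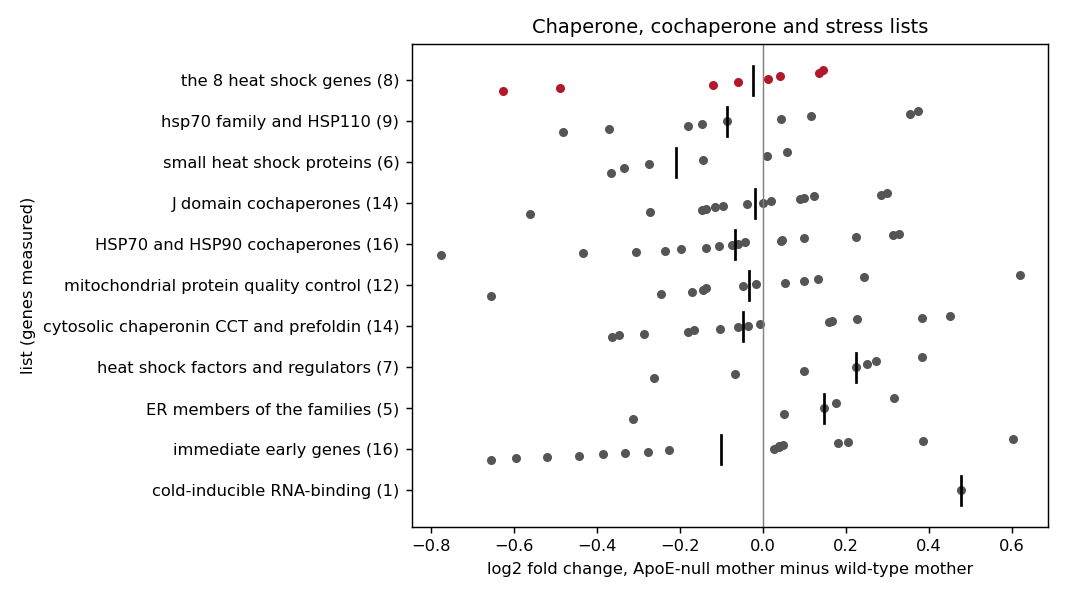
Log2 fold change between the crosses (above 0 means higher with an ApoE-null mother) of the strongest probe set of each gene in the 8 heat shock genes (red) and in 10 related lists (grey), with the number of genes measured in brackets and the list median as a bar. Most lists lie on both sides of 0, and 0 genes passed the test.

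Mitochondrial protein quality control was divided as well, with 5 positive and 7 negative of 12 genes. Clpx, the unfoldase of the matrix protease ClpXP, had 181.8 ± 27.4 (SD, n = 4) and 117.5 ± 16.7 (SD, n = 3), a log2 fold change of 0.62, and Spg7, a subunit of an inner membrane protease, had 59.2 ± 12.3 and 93.3 ± 7.03, a log2 fold change of -0.66. Both were without overlap (limma, adjusted p = 0.486 and 0.523), as were 8.58% of all genes in either direction. Of 14 genes of the cytosolic chaperonin and of prefoldin, which fold actin and tubulin, 5 were positive and 9 negative. Groups were without overlap for 4 of the 14 and in both directions, where 8.58% of all genes were without overlap. The list is small to set against that share. Cct4 and Vbp1 had log2 fold changes of 0.38 and 0.45 (limma, adjusted p = 0.534 and 0.543), whereas Cct7 and Cct2, named after their values were seen, had -0.35 and -0.10 (limma, adjusted p = 0.550 and 0.818).

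Other stress genes gave no common direction. Hsbp1, a binding partner of HSF1, had a log2 fold change of -0.26, and Hikeshi, which carries HSP70 into the nucleus on heat, of 0.27 (limma, adjusted p = 0.653 and 0.683). Their list had 5 positive and 2 negative of 7 genes. In the endoplasmic reticulum, 4 of 5 chaperone genes were positive, Hsp90b1 at 0.15, whereas Hspa5, its HSP70, had 5092 ± 650 (SD, n = 4) in the ApoE-null mother group and 6303 ± 536 (SD, n = 3) in the wild-type mother group, a log2 fold change of -0.31 (limma, adjusted p = 0.593). Of 16 immediate early genes, which respond within minutes to handling, 8 were positive and 8 negative. Nr4a1 had a log2 fold change of 0.60 and Zfp36 of -0.39 (limma, adjusted p = 0.549 and 0.598). Cirbp, a cold-inducible RNA-binding protein, was at 0.48 (interval -0.03 to 0.98).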

How the data were processed

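RNA from carotid artery, amplified from an oligo-dT primer per the labels' protocols, was measured on 7 arrays. The authors deposited a linear intensity per probe set, a MAS5 signal from GCOS (per the submitters' processing notes, which name no versions). The 2% trimmed mean was 200.0 on every array, and this scaling was kept. The number of arrays limits the precision. In the platform annotation 34958 of 45101 probe sets carried a single symbol, 932 carried several and 9211 carried none. The symbols that matched the GRCm38.p6 gene table by gene ID were the same there (0 changed).

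Signals were taken as log2(signal + 2), which understates changes of weak probe sets. The 64 control probe sets and those with a mean signal under the 40th percentile (23.6) were left out. The rest were fitted in limma 3.58.1 (R 4.3.3; lmFit, then eBayes allowing an intensity trend), with no covariate. A gene stood for its strongest probe set. On 10 simulated data sets of 27027 probe sets, limma called 3.86% of 1.5-fold, 27.1% of 2-fold and 77.4% of 4-fold changes. The simulated noise was normal and independent between probe sets, with no differences shared by an array. The rates cover all probe sets (median SE 0.220) and are not those of the heat shock probe sets (median SE 0.169). All probe sets of the members were named. From other lists came genes that passed, or otherwise the 2 with the smallest p, apart from those said to be named after their values were seen. Apoe and Xist served as checks. The members and lists were chosen with earlier results of these data known.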

Additional observations from a re-analysis of the deposited data

Results flagged for a closer look

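Among the 20 heat shock probe sets, the 4 arrays of the ApoE-null mother group held 1 array far from the others on 2 probe sets of Hsp90aa1, and chance gives about 1 in 20 such groups. On 1426645_at ApoE-null mother 1 had a signal of 2213.8, and the others of its group had 2983.8 to 3132.5. On 1433251_at ApoE-null mother 4 had a signal of 4.6, and the others had 15.9 to 17.3, all of them below the background ceiling of their arrays.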

How the results depend on the processing

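Across the alternatives 0 heat shock probe sets passed the test in limma, and 3 to 6 of them were at an unadjusted p under 0.05. The share of all probe sets at that level was not counted for the alternatives. The alternatives were pseudocounts of 1 and 16, other intensity filters, quantile normalization, median centring, other variance models and each array left out. The call over all probe sets was 1, and it was 2 with quantile normalization, 0 without an intensity trend and 0 to 18 with single arrays left out (18 without wild-type mother 1, 4 without wild-type mother 3, 0 without any of the others). The count of genes without overlap was 1 with quantile normalization and 0 with the mean over probe sets. The share of all genes without overlap was not counted for these settings either. Signs turned for 8 probe sets, all with log2 fold changes of -0.14 to 0.14 on all arrays. With quantile normalization the log2 fold changes of Dnajb1 1416755_at and Hspe1 1422579_at were -0.0046 and 0.0072, and the mean over probe sets of Dnajb1 was -0.081. With single arrays left out, Dnajb1 1416755_at ranged from -0.053 to 0.12, Hspe1 1422579_at from -0.10 to 0.099, Hspe1 1450668_s_at from -0.017 to 0.31, Hspa1b 1452318_a_at from -0.059 to 0.11, Hspa1b 1427127_x_at from -0.32 to 0.29, Hspa1b 1427126_at from -0.44 to 0.39, Hsp90aa1 1438902_a_at from -0.15 to 0.018 and Hsp90aa1 1426645_at from -0.24 to 0.0502. The cause was not tested. No paired analysis was possible because the labels give the groups no shared replicate numbers.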
